A study of Mus musculus with 8 samples.

Results

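The early response factors described here are 10 genes, the zinc finger factors Egr1, Egr2 and Egr3, the orphan nuclear receptors Nr4a1, Nr4a2 and Nr4a3, and the growth and RNA decay regulators Ier2, Btg2, Gadd45b and Zfp36. They were taken by gene symbol from the 23238 symbols of the deposited counts. All 10 were found, and all 10 passed the filter on low counts. The RNA was that of stromal cells of the uterus from ovariectomized C57BL/6-ICR mice, as labelled, read at the 3′ ends of polyadenylated transcripts. The 4 groups held 2 libraries each. They were Atg7d/d mice (Atg7f/f;Amhr2cre, the autophagy gene Atg7 deleted by a Cre expressed from Amhr2, a gene of the reproductive tract mesenchyme) given estradiol (E2), Atg7d/d mice given oil, Atg7f/f mice (floxed, without the Cre) given estradiol, and Atg7f/f mice given oil. The labels name no group with the Cre and an unfloxed gene, so the Cre and the deletion cannot be told apart. They give neither the estradiol dose nor the time after it. Nor do they say that the 2 libraries of a group were of different animals. The p-values therefore weigh differences against the spread between these libraries, which may be technical only.

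Early response genes are transcribed within minutes of a stimulus, before any new protein is made, and their short-lived messages decay again quickly. Serum response factor (SRF) with its ternary complex partners, and the cyclic AMP response element binding protein (CREB), are the classic activators at their promoters. EGR proteins bind GC-rich sites, and NR4A receptors bind DNA without a known hormone. In the rodent uterus, estradiol is known as an inducer of early genes such as Fos.

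Library totals ran between 5458390 and 6951080 counts. Levels below are in CPM, counts scaled to a common library size with TMM factors. A transcript is counted once at its 3′ end, so no length correction was made. The differences were tested in 1 edgeR quasi-likelihood model of the 4 group means. Adjusted p-values are Benjamini-Hochberg values over the 13347 genes tested, with 0.05 as the threshold. Fewer cells of a type and less RNA per cell cannot be told apart in such samples. The 12 fibroblast markers, Col1a2, Dcn and Col1a1 the most abundant, were all detected. Epithelial markers were present as well, and their summed level separated the libraries. The 15 genes summed to 1374 and 1872 CPM in Atg7d/d estradiol libraries, against 11330 and 4786 CPM in Atg7d/d oil libraries. They summed to 1342 and 2924 CPM in Atg7f/f estradiol libraries, against 18160 and 6120 CPM in Atg7f/f oil libraries. Library 1 of each oil group thus stood highest. The targeted gene did not separate the genotypes, at 3.32 to 5.20 CPM in the libraries labelled Atg7d/d and 2.79 to 5.67 CPM in those labelled Atg7f/f. The deleted part of Atg7 is not given in the labels, and counts at a 3′ end outside it check nothing, so the genotypes below go by the labels.

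Promoter sequence was compared with RefSeq windows on GRCm38.p6, from 250 bases before to 50 after each start, for 7 of the 10 genes. Egr1, Egr3 and Ier2 are named only. The stretches shown hold the letters that CREB and SRF recognise, since those letters recur in the NR4A promoters and meet in Egr2. Capitals mark the CRE core TGACG, which reads CGTCA from the other strand, the full CRE TGACGTCA, or the CArG box bound by SRF.
Nr4a1, chr15:101266608-101266815, plus strand: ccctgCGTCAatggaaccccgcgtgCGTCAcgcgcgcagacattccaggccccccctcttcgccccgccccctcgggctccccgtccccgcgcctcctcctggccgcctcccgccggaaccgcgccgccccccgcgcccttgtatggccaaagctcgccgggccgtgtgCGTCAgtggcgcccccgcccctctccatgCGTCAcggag
Nr4a2, chr2:57124105-57124208, minus strand: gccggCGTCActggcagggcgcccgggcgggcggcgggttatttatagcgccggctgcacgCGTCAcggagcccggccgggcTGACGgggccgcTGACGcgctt
Nr4a3, chr4:48045069-48045152, plus strand: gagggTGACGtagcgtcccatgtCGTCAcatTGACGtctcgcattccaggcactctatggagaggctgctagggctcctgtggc
Egr2, chr10:67537753-67537823, plus strand: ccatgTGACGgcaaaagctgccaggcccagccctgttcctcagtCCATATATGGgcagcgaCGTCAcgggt
Btg2, chr1:134079309-134079326, minus strand: aataaTGACGTCAgtgag

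The windows of Nr4a1, Nr4a2 and Nr4a3 each held 4 CRE cores, a number reached in 0.231% of the 32851 windows (76). The number 4 is that of these same windows, so the share is a description only. For Nr4a3 the stretch shown holds 3 of them, and the other lies 147 to 143 bases before the RefSeq start. That place is inside the gene as GENCODE annotates it, from 48045153 on. The stretches of Nr4a1 and Egr2 also lie inside their annotated genes, which begin at 101254269 and 67535475, before internal RefSeq starts. So does the only window of Zfp36, while the stretches of Nr4a2 and Btg2 lie outside their genes. No stretch shown overlaps an annotated exon. At least 1 core stood in 5 of the 7 genes, Btg2, Egr2, Nr4a1, Nr4a2 and Nr4a3, counted over all windows of a gene, against 23% of the 27025 genes with a window. Of the Egr2 windows, some held no core. The full CRE, which contains the core on both strands, stood in Btg2 alone of the 7, between 166 and 159 bases before its start, against 2.03% of genes. A CArG box stood in Egr2 and Zfp36, against 1.81% of genes. The full estrogen response element was in none of the 7 and in 0.074% of genes, and its core GGTCA was in 3 of 7 and in 43.6% of genes. The SP1 site GGGCGG was in all 7 and in 38.2% of genes, and TATAAA was in Gadd45b and Nr4a2 and in 15.7% of genes. The EGR site GCGTGGGCG, found in 0.707% of genes, and the NR4A monomer site AAAGGTCA, found in 1.7%, were in none of the 7. All motifs were searched on both strands. A match is a description of letters in a window and no measure of binding.

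**Figure D1:**
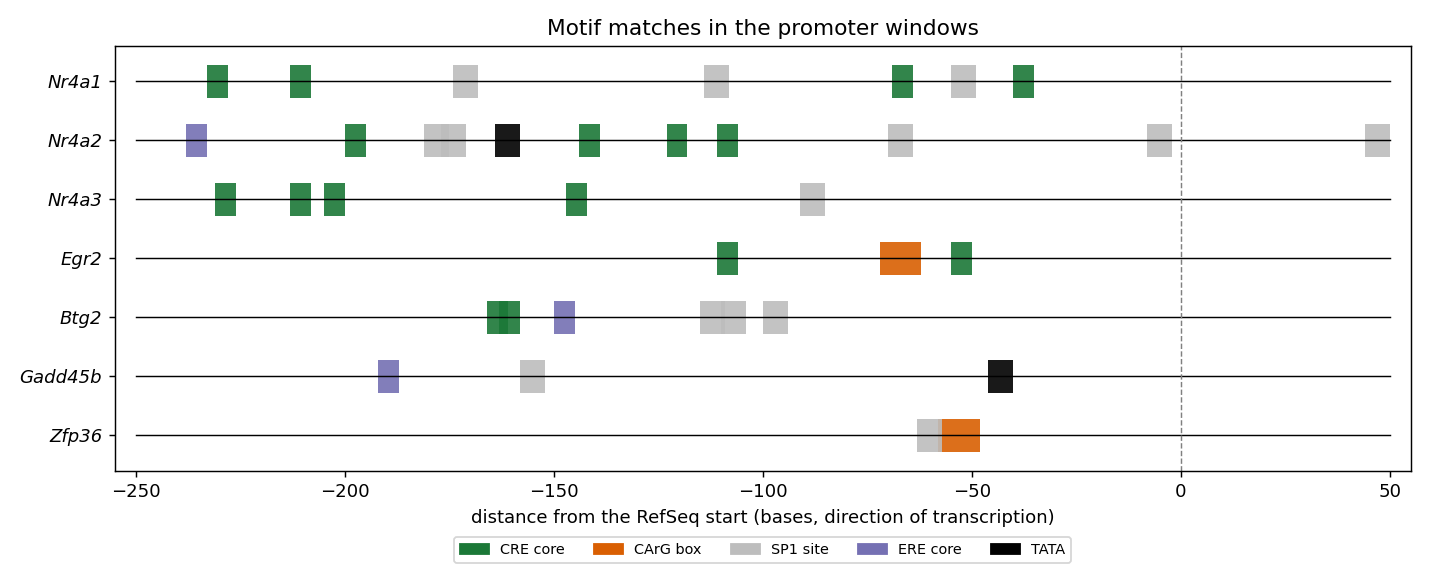
Motif matches in the promoter windows of the 7 genes with a RefSeq window, by distance in bases from the start (dashed line) in the direction of transcription, with 1 of several windows drawn for Egr2. Green blocks are CRE cores, of which the 3 Nr4a rows hold 4 each, and orange blocks are CArG boxes, which stand in the Egr2 and Zfp36 rows.

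The question of the first comparison was how the genes differed between estradiol and oil within each genotype. In Atg7d/d cells 7 of the 10 genes fell and none rose, while 11.2% of all tested genes fell and 13.1% rose. In Atg7f/f cells 5 of the 10 fell and none rose, while 14% of all tested genes fell and 15.8% rose. Every fold change of the 10 was below 0 in both genotypes. Their median was -1.37 in Atg7d/d cells and -1.13 in Atg7f/f cells on the log2 scale, against 0.02 and 0.01 over all tested genes. With the genotypes averaged, 4 libraries against 4, all but Egr1 fell, while 22.2% of all tested genes fell.

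**Figure D2:**
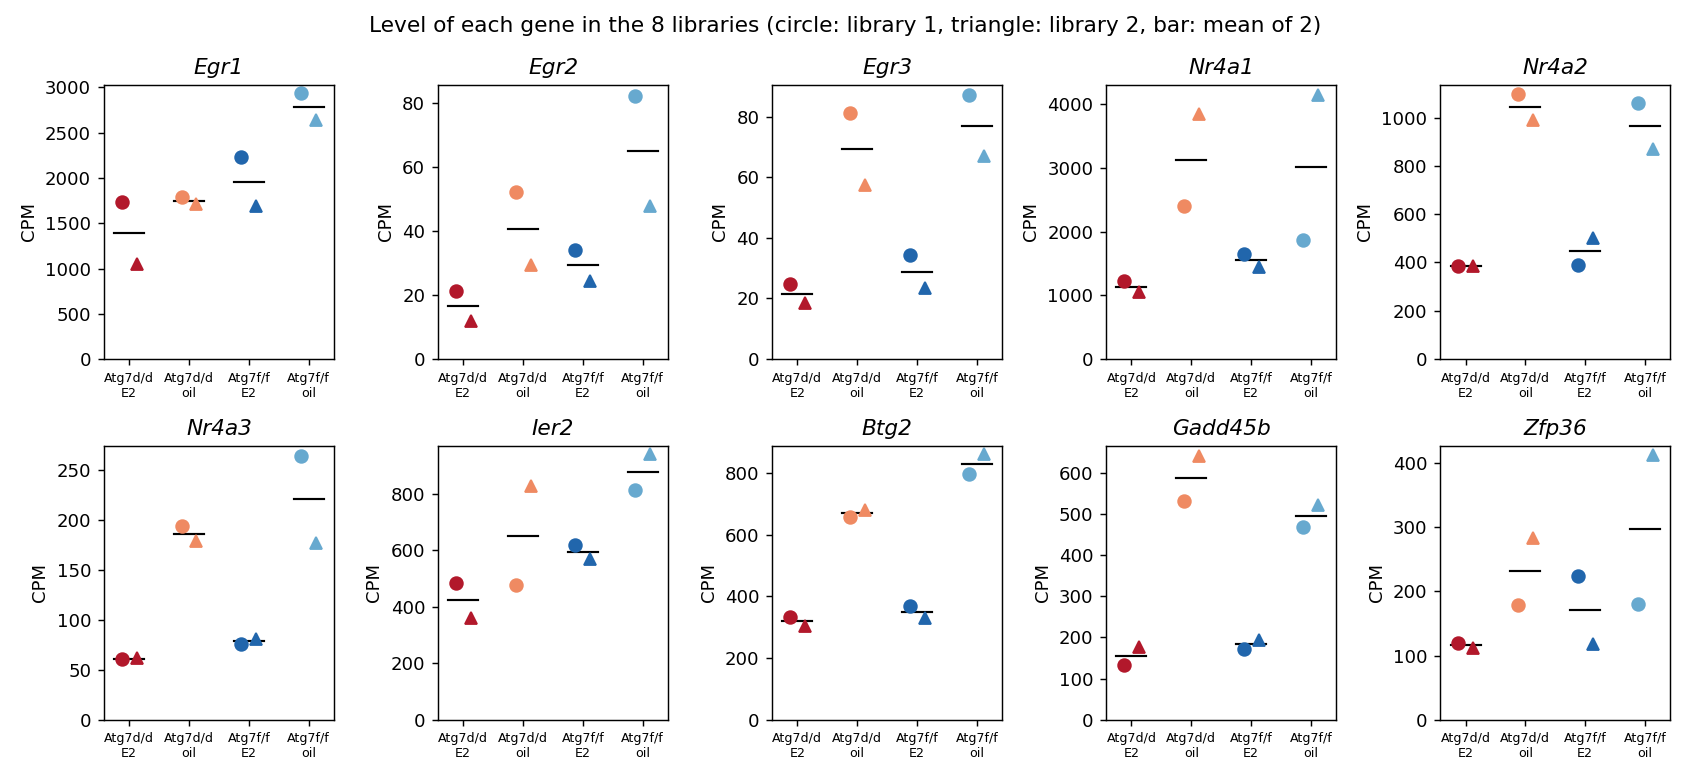
Level of each of the 10 genes in CPM (vertical axes from 0) in the 8 libraries, with circles for library 1, triangles for library 2 and a bar at the mean of 2. The estradiol libraries lie below the oil libraries of the same genotype for Egr2, Egr3, Nr4a1, Nr4a2, Nr4a3, Btg2 and Gadd45b. Those of Egr1 and Ier2 overlap in Atg7d/d cells and those of Zfp36 in Atg7f/f cells. The share of all tested genes with separate groups was not counted.

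Of the EGR factors, Egr3 fell in both genotypes, Egr2 in Atg7d/d cells and Egr1 in neither. Egr3 acts in muscle spindle and lymphocyte development. Egr3 (chr14:70077203-70082614, mm10, plus strand) had 24.7 and 18.6 CPM in Atg7d/d estradiol libraries, against 81.2 and 57.4 CPM in Atg7d/d oil libraries. Egr3 had 34.2 and 23.5 CPM in Atg7f/f estradiol libraries, against 87.1 and 66.9 CPM in Atg7f/f oil libraries. The highest estradiol library lay below the lowest oil library across both genotypes. The log2 fold change of Egr3 was -1.68 ± 0.28 (SE; edgeR adjusted p = 0.00439) in Atg7d/d cells and -1.41 ± 0.27 (adjusted p = 0.00652) in Atg7f/f cells. Leaving out Atg7d/d estradiol library 2 ended the first call (adjusted p = 0.0514), and leaving out Atg7f/f estradiol library 2 ended the other (adjusted p = 0.0534).

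Egr2 (chr10:67535475-67542188, plus strand), a factor of Schwann cell myelination and hindbrain patterning, was lower with estradiol and more variable between libraries. Egr2 had 21.4 and 11.8 CPM in Atg7d/d estradiol libraries, against 52.3 and 29.3 CPM in Atg7d/d oil libraries. Egr2 had 34.2 and 24.4 CPM in Atg7f/f estradiol libraries, against 82.2 and 47.8 CPM in Atg7f/f oil libraries. The groups did not overlap within a genotype, though library 1 was the higher of the 2 in every group. Egr2 fell in Atg7d/d cells, with a log2 fold change of -1.30 ± 0.40 (edgeR adjusted p = 0.044). Its change in Atg7f/f cells, -1.15 ± 0.39, did not pass (adjusted p = 0.052). The Atg7d/d call was lost in 5 of the 8 fits that each left out 1 library, and was -0.82 without Atg7d/d oil library 1 (adjusted p = 0.245) and -1.79 without Atg7d/d estradiol library 1 (adjusted p = 0.0807).

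Egr1 (chr18:34859823-34864984, plus strand), a growth factor responsive factor needed in the mouse for pituitary luteinizing hormone, was the only one of the 10 that did not pass in the averaged comparison. Egr1 had 1731 and 1050 CPM in Atg7d/d estradiol libraries, against 1786 and 1711 CPM in Atg7d/d oil libraries. Egr1 had 2229 and 1687 CPM in Atg7f/f estradiol libraries, against 2934 and 2636 CPM in Atg7f/f oil libraries. The Atg7d/d groups overlapped and the Atg7f/f groups did not. Its log2 fold change was -0.33 ± 0.26 (edgeR adjusted p = 0.383) in Atg7d/d cells, -0.51 ± 0.26 (adjusted p = 0.17) in Atg7f/f cells and -0.42 ± 0.19 (adjusted p = 0.091) on average. The 95% interval in Atg7d/d cells was -0.92 to 0.26. The value there was -0.74 without Atg7d/d estradiol library 1 and -0.01 without Atg7d/d estradiol library 2. On average it passed without Atg7d/d estradiol library 1, at -0.62 (adjusted p = 0.0337).

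Ratios of one EGR gene to another within a library were also compared. The log2 ratio of Egr3 to Egr1 averaged -6.04 ± 0.157 in the 4 estradiol libraries and -4.93 ± 0.356 in the 4 oil libraries (SD). The log2 ratio of Egr2 to Egr1 averaged -6.24 ± 0.206 in the 4 estradiol libraries and -5.48 ± 0.407 in the 4 oil libraries. Neither ratio overlapped between estradiol and oil libraries. The differences were -1.10 and -0.76, each with p = 0.0286 in a two-sided exact permutation test, the smallest that 4 libraries against 4 allow. The test exchanged libraries without regard to genotype, so its p-values hold only if genotype left the ratios unchanged. The 2 ratios were among 6 tested within the EGR and NR4A families, chosen after the values had been seen. Neither passed the correction over the 6 (adjusted p = 0.0857). The ratio of Egr3 to Egr2 differed by -0.34 (exact permutation p = 0.257).

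Of the NR4A receptors, Nr4a2 and Nr4a3 fell in both genotypes. Nr4a3 (chr4:48045153-48086447, plus strand), a receptor also called NOR1, had 60.6 and 61.5 CPM in Atg7d/d estradiol libraries, against 194 and 179 CPM in Atg7d/d oil libraries. Nr4a3 had 75.6 and 81.3 CPM in Atg7f/f estradiol libraries, against 264 and 177 CPM in Atg7f/f oil libraries. All 4 estradiol libraries lay below the lowest oil library. The log2 fold change of Nr4a3 was -1.61 ± 0.21 (edgeR adjusted p = 0.0021) in Atg7d/d cells and -1.49 ± 0.21 (adjusted p = 0.00191) in Atg7f/f cells.

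Nr4a2 (chr2:57106830-57124003, minus strand), also called NURR1 and required for midbrain dopamine neurons, had 388 and 387 CPM in Atg7d/d estradiol libraries, against 1100 and 990 CPM in Atg7d/d oil libraries. Nr4a2 had 391 and 502 CPM in Atg7f/f estradiol libraries, against 1061 and 869 CPM in Atg7f/f oil libraries. Here too the 4 estradiol libraries lay below the 4 oil libraries. Nr4a2 fell by 1.43 ± 0.20 on the log2 scale in Atg7d/d cells (edgeR adjusted p = 0.00243) and by 1.11 ± 0.20 in Atg7f/f cells (adjusted p = 0.00455). The level of Nr4a2 was 2.7-fold lower with estradiol in Atg7d/d cells and 2.16-fold lower in Atg7f/f cells.

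Nr4a1 (chr15:101254269-101274795, plus strand), also called NUR77 and active in T cell selection and steroid-producing cells, differed widely between its oil libraries. Nr4a1 had 1221 and 1049 CPM in Atg7d/d estradiol libraries, against 2401 and 3843 CPM in Atg7d/d oil libraries. Nr4a1 had 1655 and 1437 CPM in Atg7f/f estradiol libraries, against 1872 and 4144 CPM in Atg7f/f oil libraries. The groups did not overlap, but the Atg7f/f oil libraries were 2.21-fold apart. Nr4a1 fell in Atg7d/d cells, with a log2 fold change of -1.46 ± 0.37 (edgeR adjusted p = 0.0215). Over the 8 fits without 1 library it ran between -1.76 and -1.08, and the call was lost without either Atg7d/d estradiol library or Atg7d/d oil library 2 (adjusted p up to 0.138). In Atg7f/f cells the value of -0.96 ± 0.36 did not pass (adjusted p = 0.0754). It was -1.43 without Atg7f/f oil library 1, where it passed, and -0.31 without Atg7f/f oil library 2 (adjusted p = 0.426). The ratios of Nr4a1 to Nr4a3, Nr4a2 to Nr4a3 and Nr4a1 to Nr4a2 differed by 0.40, 0.26 and 0.13 on the log2 scale between estradiol and oil libraries, with exact permutation p-values of 0.429, 0.0857 and 0.686.

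Of the growth regulators, Gadd45b and Btg2 fell in both genotypes. Gadd45b (chr10:80930073-80932204, plus strand) encodes a stress protein that binds MAP kinase kinases and takes part in DNA demethylation. Gadd45b had 132 and 178 CPM in Atg7d/d estradiol libraries, against 532 and 640 CPM in Atg7d/d oil libraries. Gadd45b had 172 and 194 CPM in Atg7f/f estradiol libraries, against 469 and 522 CPM in Atg7f/f oil libraries. The estradiol and oil libraries lay far apart, and the means were 155 ± 32.3 CPM and 586 ± 76.6 CPM in Atg7d/d cells (SD, n = 2 each). The log2 fold change of Gadd45b was -1.92 ± 0.21 (edgeR adjusted p = 0.00115) in Atg7d/d cells, the furthest from 0 of the 10, and -1.44 ± 0.20 (adjusted p = 0.00195) in Atg7f/f cells.

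Btg2 (chr1:134075170-134079120, minus strand) encodes an antiproliferative protein that recruits the CCR4-NOT deadenylase to messages. Btg2 had 333 and 304 CPM in Atg7d/d estradiol libraries, against 657 and 681 CPM in Atg7d/d oil libraries. Btg2 had 367 and 331 CPM in Atg7f/f estradiol libraries, against 797 and 860 CPM in Atg7f/f oil libraries. The libraries of a group were close, and no estradiol library reached an oil library. The log2 fold change of Btg2 was -1.07 ± 0.17 (edgeR adjusted p = 0.00359) in Atg7d/d cells and -1.25 ± 0.17 (adjusted p = 0.00164) in Atg7f/f cells. Btg2, Gadd45b, Nr4a2 and Nr4a3 kept their calls in both genotypes in each of the 8 fits that left out 1 library.

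Zfp36 (chr7:28376784-28380253, minus strand) encodes tristetraprolin, which binds AU-rich elements and brings the same deadenylase to cytokine messages. Zfp36 had 120 and 112 CPM in Atg7d/d estradiol libraries, against 180 and 283 CPM in Atg7d/d oil libraries. Zfp36 had 224 and 118 CPM in Atg7f/f estradiol libraries, against 181 and 412 CPM in Atg7f/f oil libraries. Only the Atg7d/d groups were separate. Its log2 fold changes of -0.998 ± 0.42 in Atg7d/d cells (edgeR adjusted p = 0.109) and -0.79 ± 0.41 in Atg7f/f cells (adjusted p = 0.174) did not pass. Zfp36 was called on average over the genotypes, at -0.90 ± 0.29 (adjusted p = 0.0324). An antisense gene, Gm44710, overlaps its exons, and since strand use in the counting is not stated, reads of the pair cannot be told apart.

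Ier2 (chr8:84661331-84662852, minus strand), a nuclear protein of the early growth factor response, had 484 and 361 CPM in Atg7d/d estradiol libraries, against 476 and 827 CPM in Atg7d/d oil libraries. Ier2 had 620 and 568 CPM in Atg7f/f estradiol libraries, against 814 and 941 CPM in Atg7f/f oil libraries. The Atg7d/d groups overlapped and the Atg7f/f groups did not. Its log2 fold changes were -0.63 ± 0.27 in Atg7d/d cells (edgeR adjusted p = 0.12) and -0.56 ± 0.27 in Atg7f/f cells (adjusted p = 0.144), and on average -0.59 ± 0.19 (adjusted p = 0.0304), which passed. The averaged calls of Ier2 and Zfp36 were both lost when libraries were scaled by their totals alone. That of Ier2 was also lost in 4 of the 8 fits without 1 library, those without Atg7d/d estradiol library 2, Atg7d/d oil library 2 and either Atg7f/f estradiol library, and its value ran between -0.77 and -0.37 over the 8. That of Zfp36 was lost in 5 of the 8, those without either Atg7d/d estradiol library, Atg7d/d oil library 2, Atg7f/f estradiol library 2 and Atg7f/f oil library 2, and its value ran between -1.16 and -0.55.

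**Figure D3:**
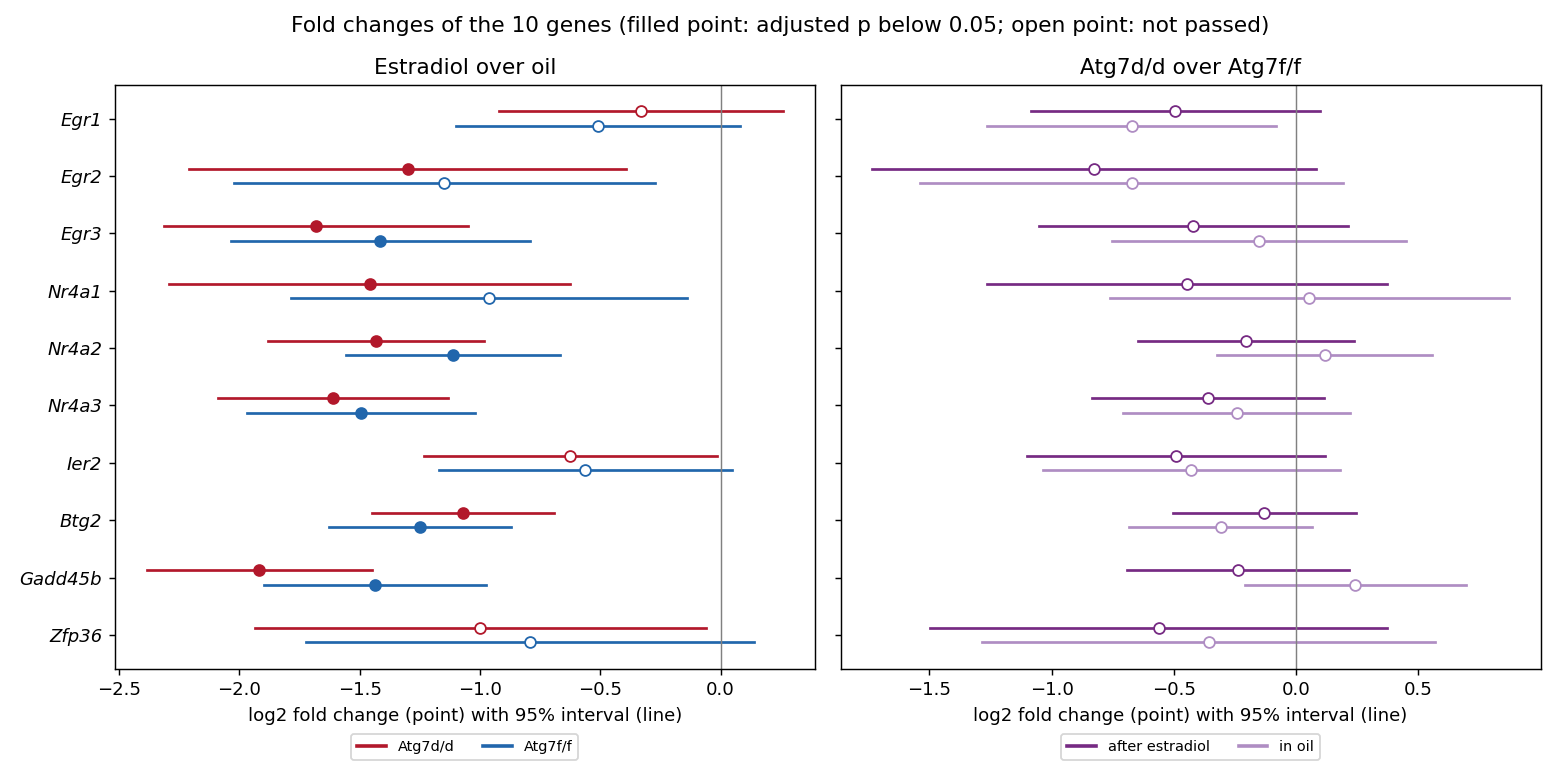
Log2 fold changes (points) with 95% intervals (lines) of the 10 genes, estradiol over oil by genotype on the left and Atg7d/d over Atg7f/f by treatment on the right, with filled points where the edgeR adjusted p was below 0.05. All points on the left lie below 0, from -1.92 for Gadd45b to -0.33 for Egr1 in Atg7d/d cells, and no point on the right is filled.

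Markers of other cells differed between the same groups. Beside the counts given here, 11.2% of all tested genes fell and 13.1% rose in Atg7d/d cells. In Atg7f/f cells 14% fell and 15.8% rose. Of the 15 epithelial markers 5 fell in Atg7d/d cells and 7 in Atg7f/f cells with estradiol, and none rose, with medians of -1.25 and -1.18. Of the 15, 12 lay below 0 in Atg7d/d cells, where log2 fold changes ran from -3.01 to 0.825. In Atg7f/f cells 13 did, in a range from -3.43 to 0.831. The most abundant, Cldn4, was at -3.01 (edgeR adjusted p = 0.0105) and -3.05 (adjusted p = 0.00816) in Atg7d/d and Atg7f/f cells. Cdh1, the next, did not pass in Atg7d/d cells (adjusted p = 0.0654) and was at -2.38 in Atg7f/f cells (adjusted p = 0.0329). Krt18, a keratin of simple epithelia, was at -3.00 ± 0.64 (adjusted p = 0.0113) in Atg7d/d cells. In Atg7f/f cells Krt18 was the lowest of the 15, at -3.43 ± 0.65 (adjusted p = 0.00582). The summed level of the 15 heat shock genes, not each of them, was lower with estradiol, at 14650 and 15890 CPM in Atg7d/d estradiol libraries, against 27770 and 22300 CPM in Atg7d/d oil libraries. They summed to 15790 and 18040 CPM in Atg7f/f estradiol libraries, against 44820 and 24650 CPM in Atg7f/f oil libraries. Library 1 of the Atg7f/f oil group was the highest in both sums. Without library 1 of both oil groups, an alternative chosen after seeing the data, every estradiol fold change of the 10 kept its sign. The oil libraries kept there still had epithelial sums of 4786 and 6120 CPM, above every estradiol library, so the epithelial difference remained. The 10 genes themselves summed to 4516 and 3533 CPM in Atg7d/d estradiol libraries, against 7459 and 9240 CPM in Atg7d/d oil libraries. They summed to 5801 and 4965 CPM in Atg7f/f estradiol libraries, against 8563 and 10670 CPM in Atg7f/f oil libraries. In both oil groups the sum of the 10 was higher in library 2, as Nr4a1 was, while Egr1, Egr2, Egr3, Nr4a2 and Nr4a3 were each lower in library 2, as the epithelial sum was. Most of the 12 fibroblast markers went the other way. In Atg7d/d cells 7 rose and none fell, and in Atg7f/f cells 7 rose and 1 fell. The changes were unequal, in Atg7d/d cells from 5.25 for Col1a1, 4.39 for Col3a1 and 4.14 for Col1a2 to -0.38 for Dcn on the log2 scale. The 12 fibroblast markers summed to 8918 and 8312 CPM in Atg7d/d estradiol libraries, against 2552 and 3184 CPM in Atg7d/d oil libraries. They summed to 8645 and 6171 CPM in Atg7f/f estradiol libraries, against 2147 and 2590 CPM in Atg7f/f oil libraries. Of 9 smooth muscle markers 4 rose and 1 fell in Atg7d/d cells, and 5 rose and none fell in Atg7f/f cells, with medians of 0.80 and 1.25. They summed to 6225 and 7164 CPM in Atg7d/d estradiol libraries, against 3065 and 4029 CPM in Atg7d/d oil libraries. In Atg7f/f libraries they summed to 6443 and 6600 CPM with estradiol, against 1601 and 3524 CPM with oil. The part of the epithelial, fibroblast and smooth muscle markers in the fall of the 10 genes was not tested.

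Relatives of the 10 genes were examined as well. For this list and those that follow, 11.2% of all tested genes fell and 13.1% rose in Atg7d/d cells. The shares in Atg7f/f cells were 14% and 15.8%. Of 12 tested genes alike by family or by name 7 fell in Atg7d/d cells and 9 in Atg7f/f cells, none rose, and the medians were -0.81 and -0.93. Ier3 was on this list by name and is not counted here as a paralog of Ier2. It fell in Atg7f/f cells alone, by 1.04 ± 0.31 on the log2 scale (edgeR adjusted p = 0.0334). Egr4, the remaining member of the EGR family, had 13.8 and 10.2 CPM in Atg7d/d estradiol libraries, against 83.6 and 57.8 CPM in Atg7d/d oil libraries. Egr4 had 13.8 and 13.5 CPM in Atg7f/f estradiol libraries, against 77.8 and 55.2 CPM in Atg7f/f oil libraries. Its groups lay far apart, with log2 fold changes of -2.56 ± 0.28 (edgeR adjusted p = 0.00118) in Atg7d/d cells and -2.28 ± 0.27 (adjusted p = 0.0011) in Atg7f/f cells. Ier5l and Ier5, relatives of Ier2, fell by 1.53 ± 0.22 and 0.91 ± 0.20 in Atg7d/d cells and by 1.46 ± 0.21 and 1.16 ± 0.20 in Atg7f/f cells on the log2 scale. Btg3, a relative of Btg2, fell by 1.06 ± 0.25 in Atg7d/d cells and by 0.93 ± 0.25 in Atg7f/f cells, and Gadd45g by 0.79 ± 0.20 and 0.85 ± 0.20. Btg1, the closest relative of Btg2, lay above 0 in both genotypes, at 0.24 ± 0.23 and 0.06 ± 0.23, and did not pass.

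Among the 8 tested genes that act with EGR and NR4A proteins, 4 fell in Atg7d/d cells and 5 in Atg7f/f cells, and none rose, with medians of -0.62 and -0.69. Nab2, a corepressor that binds EGR proteins, fell by 0.90 ± 0.22 in Atg7d/d cells (edgeR adjusted p = 0.0201) and by 1.17 ± 0.22 in Atg7f/f cells (adjusted p = 0.0061). Sp1, which binds GC-rich sites as EGR proteins do, fell by 0.79 ± 0.18 in Atg7d/d cells and 0.72 ± 0.18 in Atg7f/f cells, and the coactivator Ep300 by 0.80 ± 0.21 and 0.81 ± 0.20. Crebbp, the paralog of Ep300, fell by 0.63 ± 0.18 in Atg7d/d cells and by 0.65 ± 0.18 in Atg7f/f cells. Wt1, a zinc finger factor with an EGR-like site, had log2 fold changes of -0.60 ± 0.23 in Atg7d/d cells (adjusted p = 0.0842) and -0.92 ± 0.23 in Atg7f/f cells (adjusted p = 0.0172).

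Most genes upstream of the early response did not pass, while 11.2% of all tested genes fell in Atg7d/d cells and 14% in Atg7f/f cells. Of 20 tested SRF and CREB pathway genes 4 fell and none rose in Atg7d/d cells, and 5 fell and 1 rose in Atg7f/f cells, with medians of -0.38 and -0.35. Mkl2, an actin-regulated SRF coactivator, had log2 fold changes of -1.03 ± 0.20 (edgeR adjusted p = 0.00763) and -0.98 ± 0.20 (adjusted p = 0.00734) in Atg7d/d and Atg7f/f cells. Creb1, which binds the CRE, fell by 0.65 ± 0.18 in Atg7d/d cells and by 0.69 ± 0.18 in Atg7f/f cells. The CREB coactivator Crtc3 was at -0.85 ± 0.22 in Atg7d/d cells (adjusted p = 0.0218) and -0.44 ± 0.21 in Atg7f/f cells (adjusted p = 0.145). Its paralog Crtc1 was at -0.96 ± 0.35 in Atg7d/d cells (adjusted p = 0.0741) and -1.22 ± 0.35 in Atg7f/f cells (adjusted p = 0.0283). Srf had 198 and 244 CPM in Atg7f/f estradiol libraries, against 1387 and 316 CPM in Atg7f/f oil libraries. Its call in Atg7f/f cells, -1.94 ± 0.57 (adjusted p = 0.0318), thus came from groups in which oil library 1 stood far above oil library 2. The 1 gene that rose was Elk1, an SRF partner named here after its value was seen, at 0.58 ± 0.18 (adjusted p = 0.035).

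Of 37 other tested early genes 19 fell in Atg7d/d cells and 20 in Atg7f/f cells, and none rose. Their medians were -0.85 and -0.79. Fosl1 (FRA1, an AP-1 subunit) and Arc (a synaptic early gene) were lowest relative to oil, at -3.43 ± 0.45 and -2.74 ± 0.32 in Atg7d/d cells and -3.75 ± 0.45 and -2.90 ± 0.31 in Atg7f/f cells (edgeR adjusted p between 0.000796 and 0.00212). Jund, another AP-1 subunit, fell by 1.45 ± 0.19 in Atg7d/d cells and 1.38 ± 0.19 in Atg7f/f cells, and Klf2, a shear-responsive factor, by 1.66 ± 0.17 and 1.33 ± 0.17. Fos, chosen here after its values were seen as the textbook uterine early gene, did not follow. Fos had 1619 and 1070 CPM in Atg7d/d estradiol libraries, against 1045 and 1619 CPM in Atg7d/d oil libraries. Fos had 2408 and 986 CPM in Atg7f/f estradiol libraries, against 936 and 2917 CPM in Atg7f/f oil libraries. Its groups overlapped in both genotypes, with log2 fold changes of 0.01 ± 0.55 (adjusted p = 0.988) and -0.18 ± 0.55 (adjusted p = 0.825).

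The deadenylation list held the CCR4-NOT complex that BTG2 and tristetraprolin recruit, and also Pan2 and Pan3 of a separate deadenylase and the poly(A)-binding protein gene Pabpc1. Of its 14 tested genes 2 fell and 1 rose in Atg7d/d cells, and 3 fell and 1 rose in Atg7f/f cells, with medians of -0.27 and -0.17. Over all tested genes 11.2% fell and 13.1% rose in Atg7d/d cells, and 14% fell and 15.8% rose in Atg7f/f cells. None of Pan2, Pan3 and Pabpc1 passed in either genotype. The catalytic CCR4-NOT subunit Cnot7 fell by 0.88 ± 0.20 in Atg7d/d cells (edgeR adjusted p = 0.0148) and by 0.99 ± 0.20 in Atg7f/f cells (adjusted p = 0.00783). Its paralog Cnot8 rose, by 0.70 ± 0.21 (adjusted p = 0.0392) in Atg7d/d cells and 0.79 ± 0.21 (adjusted p = 0.0231) in Atg7f/f cells. Cnot4, a ubiquitin ligase gene on the same list, fell by 0.84 ± 0.18 in Atg7d/d cells and 0.83 ± 0.18 in Atg7f/f cells.

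Of 14 tested heat shock genes 7 fell and 1 rose in Atg7d/d cells, and 9 fell and none rose in Atg7f/f cells, with medians of -0.84 and -1.06. Hspb1, a small heat shock protein, fell by 1.68 ± 0.20 in Atg7d/d cells (edgeR adjusted p = 0.00153) and by 1.39 ± 0.20 in Atg7f/f cells (adjusted p = 0.002). Hspa1a and Hspa1b, the inducible HSP70 genes, are near-identical copies whose counts are uncertain apart. Their log2 fold changes were -1.68 ± 0.26 and -1.77 ± 0.23 in Atg7d/d cells and -1.44 ± 0.26 and -1.52 ± 0.23 in Atg7f/f cells. The 1 gene that rose was Hspe1, a mitochondrial chaperonin gene named here after its value was seen, at 0.82 ± 0.26 in Atg7d/d cells (adjusted p = 0.0491). The part of the heat shock genes in the values of the 10 genes was not tested.

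**Figure D4:**
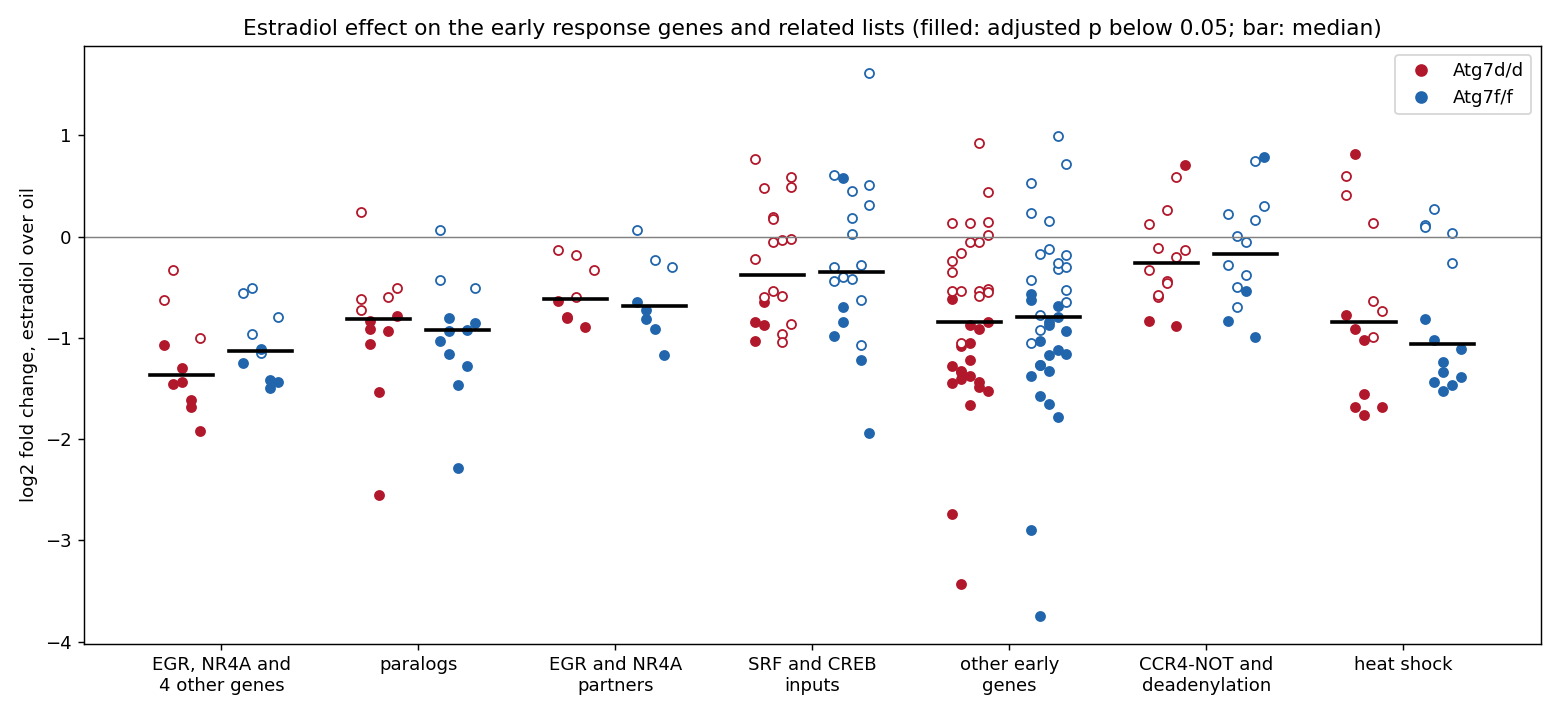
Log2 fold changes, estradiol over oil, of each tested gene (points, filled where the edgeR adjusted p was below 0.05) in the 10 genes and 6 related lists, Atg7d/d in red and Atg7f/f in blue, with a bar at each list's median. The medians of the 10 genes, -1.37 and -1.13, and those of the other early genes, -0.85 and -0.79, lie below 0, and the deadenylation list's medians, -0.27 and -0.17, lie nearest to it.

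The other comparison was between genotypes, Atg7d/d over Atg7f/f as labelled. None of the 10 genes passed after estradiol, in oil or on average over both, and 0% of all tested genes were called in each of these comparisons. At an unadjusted p below 0.05, edgeR gave 403 of all genes after estradiol, 339 in oil and 543 on average, and 0, 1 and 3 of the 10. DESeq2 called 0, 0 and 3 of all genes in the same comparisons and none of the 10. After estradiol all 10 fold changes lay below 0, from -0.83 to -0.13 with a median of -0.43. In oil they lay between -0.67 and 0.24 with a median of -0.28. The medians over all tested genes were -0.02 and -0.01. The same groups enter both the genotype and the treatment comparisons, so these values are not independent of those above.

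Egr1 had the smallest unadjusted p of the 10 in oil and on average. Its levels averaged 1748 ± 53.0 CPM in Atg7d/d oil libraries, against 2785 ± 211 CPM in Atg7f/f oil libraries (SD, n = 2 each), and the groups did not overlap. The log2 fold change of Egr1 was -0.67 ± 0.26 in oil (edgeR unadjusted p = 0.0301, adjusted p = 1) and -0.49 ± 0.26 after estradiol (adjusted p = 1). On average it was -0.58 ± 0.19, with a 95% interval of -1.001 to -0.17 (unadjusted p = 0.0116, adjusted p = 0.999). Egr2 averaged -0.75 ± 0.28 (95% interval -1.38 to -0.12, adjusted p = 0.999), and its means were 16.6 ± 6.79 CPM in Atg7d/d estradiol libraries and 29.3 ± 6.92 CPM in Atg7f/f estradiol libraries. Ier2 averaged -0.46 ± 0.19 (95% interval -0.89 to -0.03, adjusted p = 0.999). Btg2 in oil had libraries that did not overlap, at 669 ± 17.2 CPM in Atg7d/d and 829 ± 44.5 CPM in Atg7f/f, with a log2 fold change of -0.31 ± 0.17 (adjusted p = 1). Gadd45b had the one separate pair of oil groups in the other direction, at 586 ± 76.6 CPM in Atg7d/d and 495 ± 37.4 CPM in Atg7f/f. Groups of 2 libraries are often separate without any difference, and the share of all tested genes that were was not counted. The lack of overlap is thus no evidence of a genotype difference. The 15 epithelial markers lay on the same side as Egr1, with 15 of 15 averaged fold changes below 0 and a median of -0.48. So did 14 of 14 heat shock genes, with a median of -0.21, and 8 of 10 endothelial markers, with a median of -0.18. Over all tested genes 6989 of 13347 lay below 0. Most fibroblast, smooth muscle and macrophage markers lay on the other side, with 10 of 12, 8 of 9 and 9 of 10 above 0. Their medians were 0.285, 0.232 and 0.572. The part of these markers in the Egr1 values was not tested.

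The test of whether the estradiol effect differed between genotypes called none of the 10 and 0% of all genes, with 210 genes and none of the 10 at an unadjusted p below 0.05. DESeq2 called none either. The differences of the 10 lay between -0.50 and 0.18 on the log2 scale. Gadd45b, with the smallest p of the 10, had a difference of -0.48 ± 0.28 (95% interval -1.12 to 0.16, edgeR adjusted p = 1). The 95% interval was -0.94 to 0.30 for Nr4a2 and -1.65 to 0.66 for Nr4a1. The counts of 7 and 5 genes that fell are thus not shown to differ between genotypes.

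How the 10 genes followed each other over the 8 libraries is described by Pearson's r to their mean standardized log2 CPM. Each gene is part of that mean, which raises its r, and the points share libraries and treatment, so r is a description with no test. Btg2 followed the mean most closely (r = 0.978), then Egr3 (0.954) and Nr4a3 (0.945), while Ier2 (0.841), Zfp36 (0.815) and Egr1 (0.763) followed it least. By this r Btg2 ranked 19th of all 13347 tested genes, Ier2 1524th, Zfp36 1860th and Egr1 2494th. Of the 45 pairs, Nr4a2 and Nr4a3 were the most alike (r = 0.977) and Egr1 and Gadd45b the least (r = 0.428). Outside the 10, the genes of at least 10 CPM most like the profile were Spata13 (0.994), the MAP kinase phosphatase gene Dusp1 (0.990), Hspa1a (0.989), Map3k14 (0.987) and Efhd2 (0.986).

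The 2 libraries of a group differed in a pattern of their own. Nr4a1 and Zfp36 were higher in library 2 of both oil groups, by 0.68 and 0.66 in Atg7d/d and by 1.15 and 1.19 in Atg7f/f on the log2 CPM scale. Egr2 went the other way, at -0.83 in Atg7d/d oil and -0.78 in Atg7f/f oil, and was lower in library 2 of the estradiol groups too, at -0.84 in Atg7d/d and -0.48 in Atg7f/f. Btg2 differed by at most 0.15 in size in any group, which is the smallest spread of the 10.

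**Figure D5:**
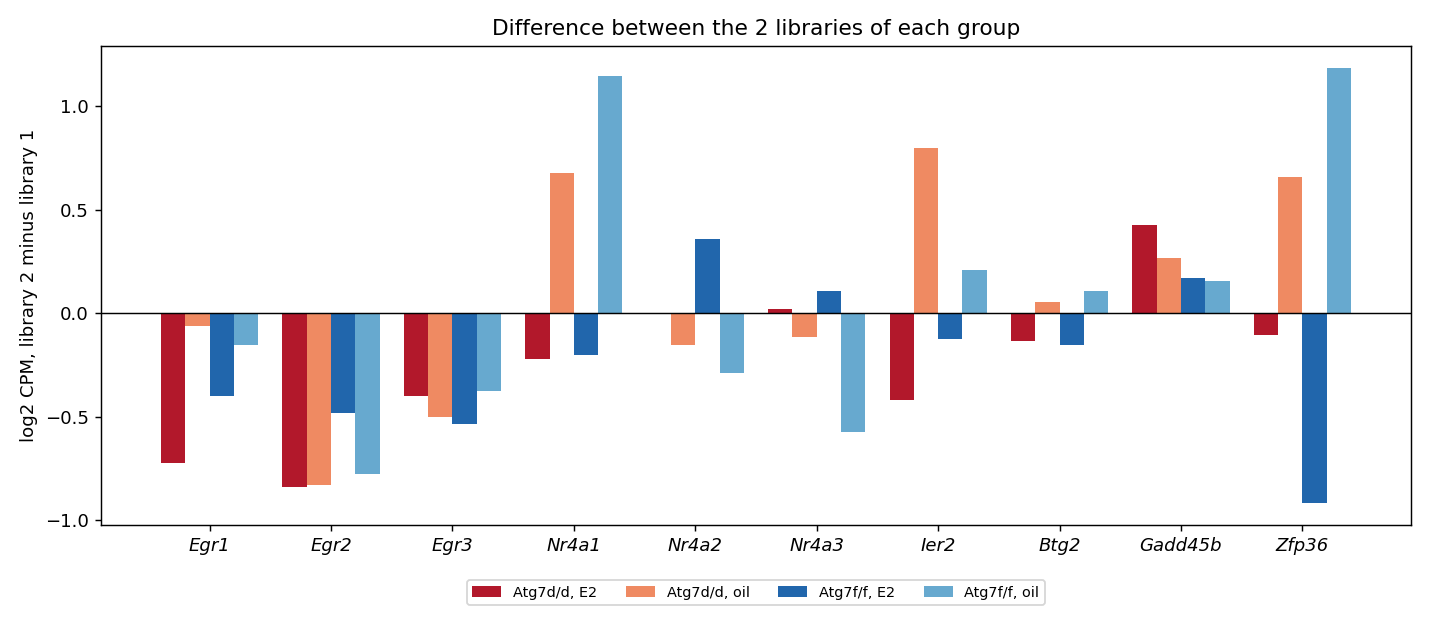
Difference in log2 CPM between library 2 and library 1 of each group (bars, from 0) for the 10 genes. Egr1, Egr2 and Egr3 lie below 0 in all 4 groups and Gadd45b above 0, whereas Nr4a1, Ier2, Btg2 and Zfp36 lie above 0 in the oil groups and below 0 in the estradiol groups.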

How the data were processed

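Gene counts of 8 QuantSeq libraries, 2 for each of 4 groups, were analysed. The authors deposited raw read counts per gene symbol, which the values bear out as whole numbers with differing totals. Per the labels, total RNA was extracted with Trizol. Bowtie2, edgeR and mm10 appear in the submitters' processing notes, with no versions. The counter, its annotation and its use of strand are not given in the sources.

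Where a symbol was repeated (35 of 23238 symbols), only its most counted line was used, which left out 0.0973% of counts. Genes were kept with edgeR 4.0.16 in R 4.3.3 (filterByExpr, minimum count 10, minimum total 15), scaled by TMM and fitted with the quasi-likelihood model on all 8 libraries, 1 mean per group (4 residual degrees of freedom, biological coefficient of variation 21.8%). All contrasts were adjusted over all tested genes by Benjamini-Hochberg. DESeq2 1.42.0, other scalings, no filter, a replicate block and fits without each library were alternatives. The fits were tested on simulated data. Log2 CPM used a prior count of 2. Gene positions are those of GENCODE M21.

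The members, the lists and the naming rule were chosen with earlier results of these data known. All 10 members were named, and of each other list up to 4 genes of at least 10 CPM with the smallest adjusted p. Of cell type marker lists the most abundant were to be named. Btg1, Ier3, Col3a1, Pan2, Pan3 and Pabpc1 were named outside these rules, as were Fos, Elk1 and Hspe1.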

Additional observations from a re-analysis of the deposited data

How the results depend on the processing

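With estradiol, the number of the 10 genes that fell was 7 in Atg7d/d cells and 5 in Atg7f/f cells, and 9 on average. Both with DESeq2 and with no filter on low counts, it was 8 in Atg7d/d cells (Zfp36 added). Under the same 2 alternatives it was 7 in Atg7f/f cells (Egr2 and Nr4a1 added) and 9 on average. When 1 library was left out it ran between 4 and 8 in Atg7d/d cells (4 without Atg7d/d estradiol library 2), between 4 and 7 in Atg7f/f cells and between 7 and 9 on average. Without library 1 of both oil groups, chosen after seeing the data, it was 8 in Atg7f/f cells, and the cause was not tested. No fold change of the 10 with estradiol changed sign, and none of the 10 was called between genotypes or for the interaction, under any alternative run. The genotype and interaction fold changes were rerun for 3 genes per comparison, those with the smallest p. Of the values rerun, the log2 ratio of Nr4a1 to Nr4a2 changed sign, between -0.105 and 0.373 over fits without 1 library.

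Over all genes, 3242 were called with estradiol in Atg7d/d cells. The number was 740 and 1068 without Atg7d/d estradiol library 1 and 2, and 1317 and 1664 without Atg7d/d oil library 1 and 2. In Atg7f/f cells it was 3978, against 2342 with only the 4 libraries compared and 1511 and 1955 without Atg7f/f estradiol library 1 and 2. On average between genotypes 0 genes were called, against 4 with no filter, 3 with DESeq2 and 1 without Atg7f/f oil library 2.

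Replicate numbers are shared between groups. Correlations of same-numbered deviations between genotypes were 0.494 in the oil groups and 0.23 in the estradiol groups. Between estradiol and oil groups they ran from -0.231 to -0.009. Same-numbered libraries were not taken as pairs in the main fit, and a pairing within each treatment was not tested. With the replicate block, 7 of the 10 fell in Atg7d/d cells, 6 in Atg7f/f cells (Egr2 added) and 9 on average, a different set with Egr1 gained (-0.45, adjusted p = 0.0392) and Zfp36 lost (adjusted p = 0.0522), and 0 were called between genotypes. With 2 libraries a group and 21.8% variation, the 95% interval of the genotype difference in Egr2 after estradiol reached from -1.73 to 0.08 on the log2 scale.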
